A study of Mus musculus with 4 samples.

Results

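The regions described here are places in the mouse genome where a FLAG chromatin immunoprecipitation with Pax6 and one named EGFP_OK both gave a peak and the one with Etv6 gave none. They were found by taking each Pax6 peak on chromosomes 1 to 19, keeping it if at least 1 bp of it was covered by an EGFP_OK peak, and dropping it if it shared any base with an Etv6 peak. That left 566 of 16233 Pax6 peaks, or 3.49% (95% interval 3.21 to 3.78). Each overlapped exactly 1 EGFP_OK peak, and no EGFP_OK peak was used by more than 1 site, so the same 566 places made up 2.04% of the 27730 EGFP_OK peaks on these chromosomes. Because the peak lists of the 3 FLAG libraries chose the sites, their tags, fold enrichments and scores are given as a description. The H3K4me2 list took no part in the choice.

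Pax6 binds DNA through a paired domain and a homeodomain, is expressed in radial glia of the embryonic cortex, and acts in the patterning and maintenance of neural progenitors and in eye formation. Etv6 is a transcription factor of the ETS family that acts mainly as a repressor. Dimethylation of lysine 4 of histone H3 (H3K4me2) marks promoters and enhancers that are active or poised. A peak of the mark at a site speaks for the cells of the H3K4me2 library, and need not hold in those of the Pax6 library. The FLAG tag is a short peptide fused to a protein so that 1 antibody, M2, can precipitate different proteins.

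All libraries came from neural progenitor-like cells of strain 129/SvJ, made by differentiating embryonic stem cells and used at passages 15 to 18. The labels do not say how the tagged proteins were expressed or whether a line was 1 clone. The title of the Pax6 library, like that of Etv6, names NS and the factor. The title of the EGFP_OK library names N31, EGFP, OK and flag, and does not say which protein was tagged. The H3K4me2 title names N31, Oct4, EGFP and 0 hr. There was 1 library of each and no control library, so every interval below covers counting error alone, neighbouring peaks are not independent, and no value has a replicate check. Per the file headers, 5288154 tags were kept for Pax6, 21498324 for EGFP_OK, 24071748 for Etv6 and 24550365 for H3K4me2. In the Pax6 library 81% of the tags were redundant, against 16% to 39% in the others. The weakest peak on these chromosomes held 10 tags in Pax6, 19 in EGFP_OK and 18 in Etv6, so a site without an Etv6 peak is one at which none was called, not one shown to be free of Etv6.

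By tags the sites were weak Pax6 peaks, and their EGFP_OK peaks were somewhat above the median of that list. In the Pax6 library they held between 10 and 109 tags, with a median of 15 (15 to 16), against 14 in Pax6 peaks of no other FLAG list, 21 in those shared with Etv6 but not EGFP_OK, and 24 in those of all FLAG lists. The authors' fold enrichment, the summit over the local background of the same library, ran from 4.54 to 25.2 in Pax6, with a median of 10.5. Their Pax6 fold was therefore like that of the other classes, whose medians were 10.4 to 10.6. In tags they were close to the Pax6-only peaks and below both classes that share Etv6. The Pax6 peaks had a median width of 862.5 bp, and 1 in 10 of them was wider than 1223 bp.

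In the EGFP_OK library the same places held between 19 and 497 tags, with a median of 55 (51 to 58). The median was 46 in EGFP_OK peaks of no other FLAG list, 48 in the whole EGFP_OK list and 58 in those of all FLAG lists. The median EGFP_OK fold was 7.18 (6.88 to 7.43), against 7.06 in peaks found in EGFP_OK alone and 6.83 in those of all FLAG lists. The Spearman's rho of the folds in the 2 libraries was 0.14 over the 566 sites, against 0.32 over the 2730 sites of all FLAG lists. These pairs share the peak caller's threshold, and the Pax6 folds take few values, 10.56 at 36 sites and 11.88 at 34, so the coefficients are given as descriptions alone.

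**Figure D1:**
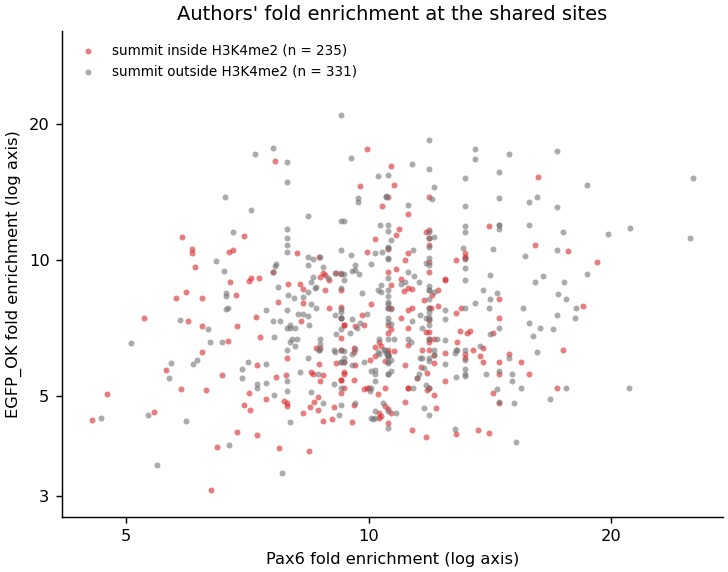
Fold enrichment in the EGFP_OK list (vertical, log axis) against that in the Pax6 list (horizontal, log axis), one point per site, coloured by whether the Pax6 summit lay inside an H3K4me2 peak. Pax6 folds span 4.54 to 25.2 and EGFP_OK folds 3.10 to 20.9, and the vertical stripes are Pax6 folds that recur.

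The highest-ranked sites are given by position in mm9, without genes, because the gene table at hand was of another build. Ranked by the worse of the Pax6 and EGFP_OK ranks by score, the first lay on chromosome 9 from 78470982 to 78471825. It held 27 tags in Pax6 at 16.2-fold and 134 tags in EGFP_OK at 15.3-fold, and the 2 summits were 69 bp apart. It sat inside a broad H3K4me2 peak of 5878 bp with 471 tags, and the nearest Etv6 peak was 7153 bp away. This place thus had a called peak in 3 of the 4 libraries.

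The next site, on chromosome 3 from 8251936 to 8252978, held 35 Pax6 tags at 12.98-fold and 317 EGFP_OK tags at 6.96-fold, inside an H3K4me2 peak of 76 tags. On chromosome 6 from 109226714 to 109227495 there were 23 Pax6 tags at 13.02-fold and 274 EGFP_OK tags at 7.83-fold, with summits 5 bp apart, inside an H3K4me2 peak of 54 tags. Both therefore lay on much smaller H3K4me2 peaks than the first. The remaining ones among the 5 best sites inside H3K4me2 were on chromosome 13 from 41541213 to 41542450, with 36 Pax6 and 238 EGFP_OK tags but summits 1508 bp apart, and on chromosome 19 from 56111902 to 56112846, with 22 and 80 tags.

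The 5 best sites outside H3K4me2 lay between 7504 and 252837 bp from the mark. On chromosome 2 from 147068755 to 147069746, Pax6 reached 25.2-fold with 28 tags, the highest Pax6 fold of all sites, and EGFP_OK 15.2-fold with 79 tags. Its summits were 64 bp apart, the nearest H3K4me2 peak was 63861 bp away and the nearest Etv6 peak 53736 bp. On chromosome 4 from 73785095 to 73785885, Pax6 reached 21.1-fold with 22 tags and EGFP_OK 11.7-fold with 66 tags, with H3K4me2 110713 bp away and Etv6 1075520 bp away. Neither had a neighbouring Etv6 or H3K4me2 peak within 50 kb. The site on chromosome 7 from 39310270 to 39311144 was alike, at 18.7-fold in Pax6 and 14.6-fold in EGFP_OK, with summits 26 bp apart and the nearest H3K4me2 peak at 252837 bp. On chromosome 5 from 60433862 to 60434322, 13 Pax6 tags gave 17.2-fold and 67 EGFP_OK tags 17.4-fold, and the nearest H3K4me2 peak was 11536 bp and the nearest Etv6 peak 1293793 bp away. Nearest to the mark was chromosome 16 from 32489833 to 32491516, a wide peak with 41 Pax6 tags at 8.66-fold and 119 EGFP_OK tags at 5.58-fold, 7504 bp from H3K4me2.

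The 3 highest folds of the Pax6 list and the 3 highest of the EGFP_OK list fell at 6 different sites. Of the Pax6 folds, the first and the third are those on chromosomes 2 and 4 above. The second, 25.1 on chromosome 10 from 94334492 to 94335066 with 20 tags, went with 11.2-fold and 38 tags in EGFP_OK. The 3 highest EGFP_OK folds were 20.9 on chromosome 6 (9839761 to 9840347), 18.4 on chromosome 13 (59074582 to 59075191) and 17.7 on chromosome 13 (29829581 to 29830599). Their Pax6 peaks held 10, 10 and 17 tags, the first pair at the lowest count in the list and the last above the median site, and all 3 lay outside H3K4me2, the first of them 1380479 bp from it.

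At the edges of the rule the overlaps were slight. The smallest overlaps with EGFP_OK were 8 bp, on chromosome 1 from 130720314 to 130721234, and 11 bp, on chromosome 6 from 35330623 to 35331520. In each the EGFP_OK peak held 26 tags. The Pax6 and EGFP_OK peaks of each site lay together on 1 H3K4me2 peak, a different one for each site. The sites nearest to Etv6 were 3 bp from an Etv6 peak on chromosome 1 (90031638 to 90032415) and 13 bp from one on chromosome 10 (16950867 to 16952314). Just outside the rule, Pax6 peaks with EGFP_OK shared only 23 bp with Etv6 on chromosome 16 (63862904 to 63863547, 13 Pax6 tags) and 92 bp on chromosome 4 (62068349 to 62069395, 16 Pax6 tags).

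To ask whether the sites lay in marked chromatin, the Pax6 summits were placed on the H3K4me2 peaks. Of the 566 summits, 235 were inside one, which is 41.5% (37.4 to 45.7), against 44.3% of all Pax6 peaks on these chromosomes. The sites were thus marked about as often as Pax6 peaks at large but stood between the extremes of the list. Pax6 peaks in no other FLAG list were marked in 22.5% (21.2 to 23.8) of 3847 cases, and those in all FLAG lists in 73.1% (71.4 to 74.7) of 2730. The sites exceeded the Pax6-only peaks by 19.03 percentage points (14.8 to 23.3) and differed by -31.6 points (-35.9 to -27.1) from the peaks of all FLAG lists. From the 9090 peaks with Etv6 and without EGFP_OK, marked in 45.0%, they differed by -3.53 points (-7.65 to 0.698), an interval that includes 0. That difference turned to 5.46 points when only Etv6 peaks with a score of at least 100 were used to exclude sites, and was -12.3 points with EGFP_OK scores of at least 100. Both settings also changed which peaks made up the comparison class.

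Counted from the EGFP_OK list, the sites again exceeded the peaks of 1 list alone, but their place among the other classes differed. The EGFP_OK summits of the sites were in H3K4me2 in 229 of 566 cases, or 40.5% (36.4 to 44.6), against 27.3% of all EGFP_OK peaks. Of the 21289 peaks found in EGFP_OK alone, 14.2% (13.7 to 14.6) were marked, a difference of 26.3 points (22.3 to 30.4). EGFP_OK peaks with Etv6 but not Pax6 were marked in 74.7% of 3161 cases and those with both in 72.2% of 2710. Places with peaks of Pax6 and EGFP_OK but not Etv6 were therefore marked more often than places with either alone. They were marked less often than places where EGFP_OK met Etv6. Both summits lay in H3K4me2 at 219 sites (38.7%), neither at 321 (56.7%) and only 1 of them at 26 (4.59%). For Pax6 peaks of all FLAG lists these shares were 70.8%, 25.6% and 3.59%. The EGFP_OK and H3K4me2 titles both name N31 and the Pax6 title NS, so sharing an EGFP_OK peak and being bound in the cells profiled for H3K4me2 cannot be told apart.

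**Figure D2:**
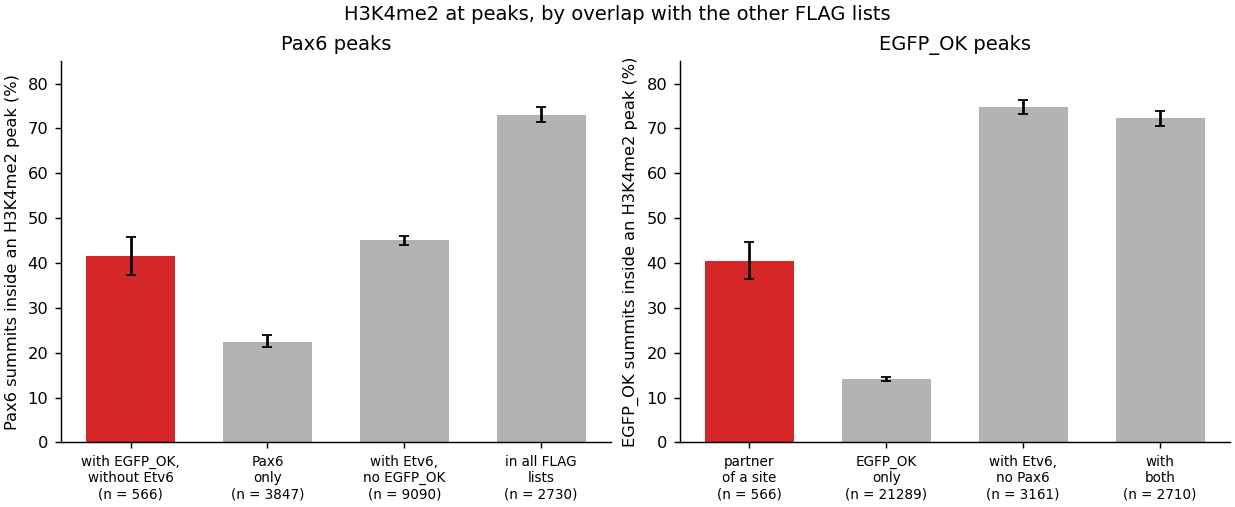
Share of summits inside an H3K4me2 peak, for Pax6 peaks (left) and EGFP_OK peaks (right) grouped by their overlap with the other FLAG lists, with exact 95% binomial intervals as bars and the number of peaks below each column. The sites, in red, stand at 41.5% and 40.5%, above the peaks of either list alone, at 22.5% and 14.2%.

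The contrast with the Pax6-only peaks was seen at every tag count. Among Pax6 peaks of 10 to 12 tags the sites were marked in 37.95% of 166 cases and the Pax6-only peaks in 22.1% of 1463, a difference of 15.8 points (8.44 to 23.7). With 23 tags or more the shares were 45.6% of 90 and 19.4% of 459, a difference of 26.2 points (15.5 to 37.0). In the classes between, the difference was 19.8, 15.1 and 21.2 points, and no interval of the 5 included 0. Grouped by Pax6 fold, 4 of 5 classes differed likewise. In the highest, of at least 15-fold, only 9 of 45 sites were marked, against 26 of 214 Pax6-only peaks, a difference of 7.85 points (-2.56 to 22.2). Grouped by Pax6 width, the 4 differences ran from 16.3 to 21.7 points. Counted from EGFP_OK, 63.1% of the 65 site peaks under 5-fold were marked, against 26.9% of EGFP_OK-only peaks, and 30.4% of the 112 at 10-fold or more, against 9.14%.

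**Figure D3:**
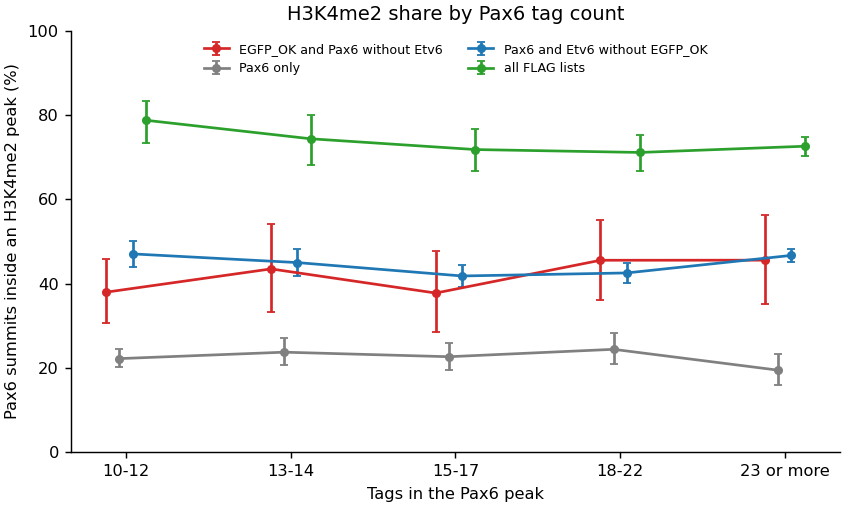
Share of Pax6 summits inside an H3K4me2 peak (vertical) by the number of tags in the Pax6 peak (horizontal), for the sites and the other classes of Pax6 peaks, with exact 95% binomial intervals. The sites run between 37.7% and 45.6%, above the Pax6-only peaks at each tag count and below the peaks of all FLAG lists.

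Marked and unmarked sites had like Pax6 signal, and the EGFP_OK fold was lower where the mark was present. The median Pax6 tag count was 15 in both the 235 marked and the 331 unmarked sites. The median EGFP_OK fold was 6.60 (6.31 to 7.12) at marked sites, against 7.44 (7.17 to 7.81) at unmarked ones. The median EGFP_OK tag count was 52 (47 to 57) at marked and 56 (51 to 62) at unmarked sites, whose intervals overlap. Among the 100 best sites by the worse of the 2 ranks, 29 were marked, against 41.5% of all 566 sites. No such set was drawn from another class, so this count is a description. Among the 59 sites with a Pax6 score of at least 100, 19 were marked, or 32.2% (20.6 to 45.6). Among Pax6-only peaks with such a score 10.9% (7.39 to 15.4) of 256 were marked, below the 22.5% of that whole class. In the other classes the share stayed closer to that of the whole class. It was 44.2% of 2817 peaks with Etv6 and without EGFP_OK, against 45.0%. For peaks of all FLAG lists it was 70.0% of 1006, against 73.1%.

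The 235 marked sites lay on 235 different H3K4me2 peaks. Those peaks held between 17 and 1074 tags, with a median of 155 (137 to 182), against 154 under Pax6-only summits, 160 under those with Etv6 and without EGFP_OK, and 262 under summits of all FLAG lists. Their median width was 2017 bp, against 1907 bp under Pax6-only summits, 2174 bp under those with Etv6 and without EGFP_OK, and 2759 bp under summits of all FLAG lists. Peaks wider than 3 kb made up 23.4% (18.1 to 29.3) of them, against 30.2% under all marked Pax6 summits, 26.2% (24.9 to 27.6) under those with Etv6 and without EGFP_OK, and 43.1% (40.9 to 45.3) under summits of all FLAG lists. In size, then, the H3K4me2 peaks under the sites were close to those under Pax6-only summits and under summits with Etv6 and without EGFP_OK, and below those under summits of all FLAG lists. An Etv6 peak elsewhere on the same H3K4me2 peak was found for 18 of the 235, or 7.66% (4.60 to 11.8), against 6.59% for Pax6-only summits and 85.7% for all marked Pax6 summits. The last share is set by the classes that hold an Etv6 peak by definition.

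Within the H3K4me2 peaks, the sites lay close to the summit of the mark more often than Pax6 peaks shared with Etv6. Within 100 bp of it lay 33 of 235 Pax6 summits, or 14.04% (9.87 to 19.2), against 9.11% of all marked Pax6 summits. The difference was 6.01 points (2.05 to 11.1) from peaks with Etv6 and without EGFP_OK, 4.97 points (0.879 to 10.1) from peaks of all FLAG lists and 1.09 points (-3.46 to 6.53) from Pax6-only peaks. H3K4me2 peaks had a median width of 2174 bp under peaks with Etv6 and without EGFP_OK. It was 2759 bp under peaks of all FLAG lists, against 2017 bp (1841 to 2212) under the sites. The part of width in these differences was not tested. The median distance was 353 bp (296 to 393) at the sites, against 331 bp (310 to 348) at Pax6-only peaks. It was 362 bp (354 to 371) at peaks with Etv6 and without EGFP_OK and 425 bp (407 to 440) at peaks of all FLAG lists. Only the median of the last class lay outside the interval of the sites.

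The 331 unmarked sites lay about as near to the mark as unmarked Pax6 peaks at large, and within 1 kb somewhat more often than Pax6-only peaks. An H3K4me2 peak lay within 1 kb of 37 of them, or 11.2% (7.99 to 15.1), against 10% of all unmarked Pax6 peaks, and within 10 kb of 133, or 40.2% (34.9 to 45.7), against 40.8%. Of the 37 within 1 kb, 19 overlapped an H3K4me2 peak with the summit outside it. Of unmarked Pax6-only peaks, 7.75% (6.81 to 8.76) of 2982 had an H3K4me2 peak within 1 kb. Overlap with the summit outside was seen at 5.74% (3.49 to 8.82) of unmarked sites and 2.88% (2.31 to 3.55) of unmarked Pax6-only peaks. The difference from unmarked Pax6-only peaks at 10 kb was 1.38 points (-4.05 to 7.02). The median distance was 13848 bp (11846 to 17500) at the unmarked sites, against 17064.5 bp (15758 to 18341) at unmarked Pax6-only peaks. Of the unmarked sites, 1 in 10 lay more than 100774 bp away.

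The rule required the 2 peaks to overlap, so peak width limits the distance between Pax6 and EGFP_OK summits, which is given as a description. The median distance was 149 bp (129 to 166), and 213 of 566 pairs, or 37.6% (33.6 to 41.8), were within 100 bp, against 42.8% of all Pax6 peaks with an EGFP_OK peak. The share was 6.25 points lower than at sites of all FLAG lists (interval of the difference -10.6 to -1.79), where 43.9% were within 100 bp and the median was 128 bp. Within 500 bp lay 77.2% (73.5 to 80.6), against 80.7% of all Pax6 peaks with EGFP_OK. At 129 sites the summits were more than 500 bp apart, so that the peaks overlapped with their centres apart, and 56 of these (43.4%) were marked, against 82 of the 213 (38.5%) with summits within 100 bp. The Pax6 peak lay wholly inside the EGFP_OK peak at 261 sites, or 46.1% (41.9 to 50.3), against 37.1% at sites of all FLAG lists. The Pax6 peaks of the sites were narrower, with a median of 862.5 bp against 1103 bp, and the part of width was not tested.

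**Figure D4:**
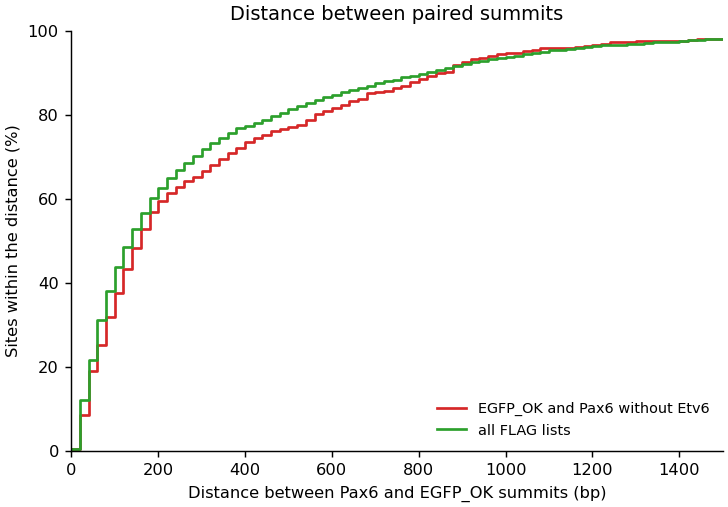
Share of sites (vertical) whose Pax6 and EGFP_OK summits lay within a given distance in bp (horizontal, shown to 1500 bp), for the 566 sites and for the 2730 Pax6 peaks of all FLAG lists. At 100 bp the curves stand at 37.6% and 43.9%, and they come together above 900 bp.

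Etv6 peaks were found in the neighbourhood of many sites, no more often than near other Pax6 peaks that lack one. The nearest Etv6 peak was a median of 18982 bp away (16810 to 22095), against 16761 bp (15834 to 17720) for Pax6-only peaks. It lay within 1 kb of 27 sites (4.77%), within 10 kb of 184, or 32.5% (28.7 to 36.5), and within 100 kb of 493 (87.1%). At 10 kb the share among all Pax6 peaks without Etv6 was 34.8%, and the difference from Pax6-only peaks was -2.64 points (-6.66 to 1.60). Marked sites had an Etv6 peak within 10 kb in 36.2% of cases and unmarked sites in 29.9%, a difference of 6.26 points (-1.55 to 14.1). At 12 sites the EGFP_OK peak itself reached an Etv6 peak that the Pax6 peak did not.

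The sites were spread over all 19 chromosomes. The most lay on chromosome 3, with 59 sites or 10.4% (8.03 to 13.2), followed by chromosome 6 with 44 and chromosome 16 with 43, and the fewest on chromosome 8 with 17. Compared with Pax6-only peaks, the share was higher by 3.22 points (0.809 to 6.12) on chromosome 3 and by 2.84 points (0.801 to 5.40) on chromosome 16, and the intervals of the other 17 differences included 0. The EGFP_OK list as a whole placed 9.94% of its peaks on chromosome 3 and 6.14% on chromosome 16, against 7.20% and 4.76% of Pax6-only peaks. Of all Pax6 peaks, 8.13% lay on chromosome 3, inside the interval of the sites, and 5.25% on chromosome 16, just below that of the sites (5.55 to 10.1). The marked share by chromosome ran from 6 of 24 sites on chromosome 12 to 11 of 18 on chromosome 14, with few sites behind each value.

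**Figure D5:**
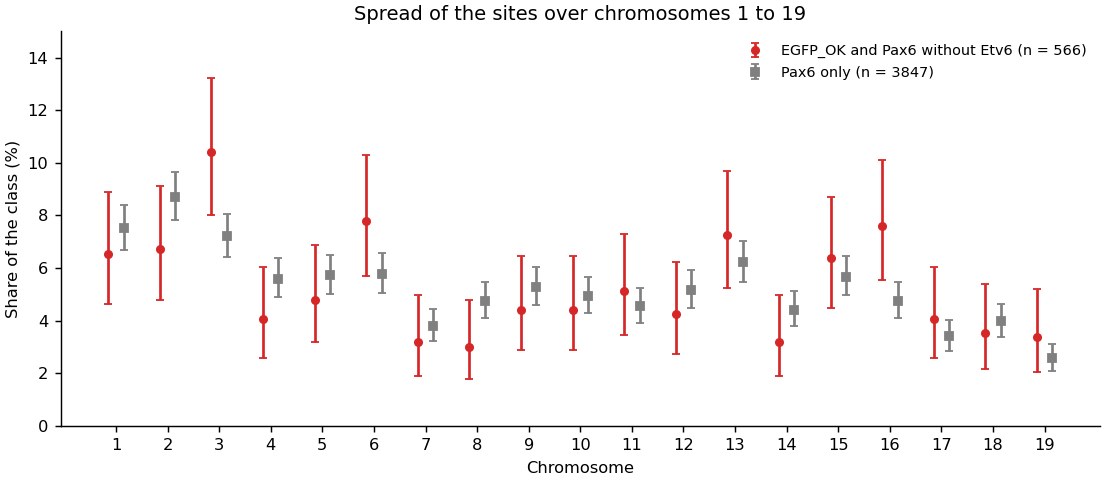
Share of each class on each of the chromosomes 1 to 19 (vertical, percent of the class), for the 566 sites and the 3847 Pax6-only peaks, with exact 95% binomial intervals. The sites stand highest on chromosome 3, at 10.4% against 7.20%, and on chromosome 16 at 7.60% against 4.76%.

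Most sites stood alone, though the spacing of other Pax6 peaks was not compared. The nearest other site was a median of 1166980 bp away, and 52 of the 566 (9.19%) had another within 100 kb. Joined at that distance they formed 22 pairs and 2 groups of 4, which are described here because of their number. On chromosome 11, 4 sites lay between 112546820 and 112680703, a span of 133.9 kb that held 4 Pax6, 5 EGFP_OK, 1 Etv6 and 2 H3K4me2 peaks. Every Pax6 peak in it was thus a site. Their Pax6 tags were 12, 19, 11 and 13 and their EGFP_OK tags 24, 55, 69 and 53, in order along the chromosome. The second reached 19.8-fold in Pax6 and 11.4-fold in EGFP_OK. None of the 4 was in H3K4me2, and the nearest H3K4me2 peak was 5793 to 63027 bp away.

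On chromosome 3 the other group spanned 152.9 kb from 146421103 to 146573992, with 5 Pax6, 4 EGFP_OK, 1 Etv6 and 6 H3K4me2 peaks. The 4 sites held 13, 12, 15 and 11 Pax6 tags and 161, 27, 31 and 78 EGFP_OK tags. The first and the third lay inside H3K4me2 peaks of 165 and 350 tags, and the other two were 4311 and 3355 bp from one.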

How the data were processed

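Per the file headers, the authors called peaks with MACS 1.4.2 on each library alone, using no control file, with p below 1e-05 for a peak, a band width of 300 bp, an effective genome of 1.87e+09 bp and at most 1 tag of 75 bp kept per position. The submitters' processing notes also name CASAVA 1.8.1, BWA 0.6.2 and mm9, with no role given. The deposited values are tag counts without normalization, a score (the −log10 of the p-value times 10), and the fold, a ratio of summit to local background, all per the file headers. With no control, accessibility and copy number may stay in the lists, and their part was not tested.

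Overlaps were computed with scipy 1.17.1, pandas 2.3.3 and numpy 2.4.6 in Python 3.11.15 and checked on simulated peaks. Shares have exact Clopper-Pearson 95% intervals, differences Newcombe intervals and medians order-statistic intervals. No p-value was computed, since each group held 1 library. The rule of the sites, the classes and the named regions (the 8 best by the worse of both ranks, the 5 best inside and outside H3K4me2, the 3 highest folds per list and those at the edges of the rule) were chosen with earlier results of these data known, and the groups along chromosomes and the sites with unequal tag counts after their values were seen. No sequence or gene is given, as the reference tables were of GRCm38.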

Additional observations from a re-analysis of the deposited data

Results flagged for a closer look

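The same rule met 19 Pax6 peaks on chromosome X, which the description above leaves out. They held a median of 14 Pax6 and 45 EGFP_OK tags, and 6 of the 19, or 31.6% (12.6 to 56.6), had their summit in H3K4me2, against 14.8% (8.98 to 22.3) of 122 Pax6-only peaks on that chromosome.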

How the results depend on the processing

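Under 12 settings 81 values were recomputed. Of these, 63 were counted as unchanged. A share or median had to stay inside the interval reported, and a count within 1.5 times its value. A difference had to keep its side of 0 and whether its interval included 0. The difference from Pax6-only peaks kept its direction with an interval above 0 under all settings tried for it, between 11.9 and 25.2 points. The lowest value came with EGFP_OK scores of at least 100 and the highest with Etv6 scores of at least 100. Both cutoffs also moved peaks into the Pax6-only class, so the range is not that of a fixed contrast. When only Etv6 peaks with a score of at least 100 excluded a site, there were 1261 sites, 54.2% in H3K4me2 and 17.8% with such an Etv6 peak within 10 kb, and the difference from Pax6 peaks with Etv6 and without EGFP_OK reversed to 5.46 points, a setting that moves weakly called Etv6 sites into the class. Pax6 scores of at least 100 left 59 sites, 32.2% in H3K4me2, with a median summit distance of 114 bp, a median Pax6 fold of 14.4 and an Etv6 peak within 10 kb at 22.03%. EGFP_OK scores of at least 100 left 308 sites, 36.04% in H3K4me2, with a median EGFP_OK fold of 8.995. The difference from Pax6 peaks with Etv6 and without EGFP_OK was then -12.3 points. That class then also took in peaks whose EGFP_OK peak scored below 100. With H3K4me2 scores of at least 100, 34.5% were marked. An EGFP_OK peak over at least 50% of the Pax6 peak gave a median summit distance of 128 bp. Requiring summits within 200 bp, added after the distances were seen, left 337 sites with a median EGFP_OK fold of 7.53 and a difference of -5.58 points from Pax6 peaks with Etv6 and without EGFP_OK. Other causes were not tested. The Pax6 library kept 5288154 tags and its list holds no peak of under 10 tags. No paired analysis was possible because each group held 1 library.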

Other observations

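The sites with the most unequal tag counts in the 2 lists were picked after their values were seen. Tags are summed over peaks that were called separately and differ in width, so they do not give the balance of the libraries at 1 place. Most EGFP_OK tags per Pax6 tag were found at a site on chromosome 16 from 13118933 to 13119456, where a peak of 497 EGFP_OK tags at 14.4-fold, ranked 18 in its list, and 2529 bp width met a Pax6 peak of 10 tags at 12.04-fold and 524 bp width, with summits 793 bp apart. Next came chromosome 17 from 60127921 to 60128509, with 301 EGFP_OK tags at 16.1-fold, 12 Pax6 tags and summits 28 bp apart, inside an H3K4me2 peak of 4765 bp. Fewest were found at chromosome 15, where the site from 60529420 to 60531547 held 109 Pax6 tags, the most of any site, at 8.52-fold, and 68 EGFP_OK tags at 9.14-fold, with summits 1064 bp apart and the nearest H3K4me2 peak 8316 bp away. On chromosome 1 from 28273992 to 28275297, 34 Pax6 tags went with 25 EGFP_OK tags, inside an H3K4me2 peak of 188 tags.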
